A study of Homo sapiens with 4 samples.

Results

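The BCL2 family was described here in 10 of its core members, BCL2, BCL2L1, MCL1, BCL2A1, BCL2L11, BBC3, PMAIP1, BIK, BAX and BAK1, chosen by gene symbol. These members and the gene lists below were chosen with earlier results of these data known. Counts and shares of them are therefore descriptions only. All 10 were found among the 25066 genes of the expression table, and all 10 were among the 16945 genes that could be tested. The measurements came from RNA sequencing of NUDUL1, a human diffuse large B cell lymphoma line of germinal center B cell type, grown as a single-cell clone with doxycycline-inducible Cas9 and transduced with Tbxa2r, a thromboxane receptor that couples to Gα13. Control cells carried a control sgRNA, and GNA13-deficient cells carried an sgRNA against GNA13, which encodes Gα13. Both genotypes were treated with U46619, a thromboxane analog, at 10 nM for 24 h, with 2 libraries per genotype, 1 sgRNA per genotype and no untreated cells. The labels call the libraries of a genotype duplicates and do not say that they came from separate cultures, so p-values measured only the spread between these libraries.

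Cell death through mitochondria is decided by the balance among proteins of the BCL2 family. Anti-apoptotic members (BCL2, BCL-XL, MCL1 and A1) hold the effectors BAX and BAK in check, and BH3-only members (BIM, PUMA, NOXA, BIK and others) bind the anti-apoptotic proteins or engage the effectors when a cell is stressed or loses survival signals. Freed effectors form pores in the outer mitochondrial membrane and release cytochrome c. In germinal centers, where B cells die readily unless selected, BCL2 is normally kept low by the repressor BCL6, and BIM is a main killer of unselected cells. Most of this control acts on proteins, and only mRNA was measured here.

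The libraries held between 29209544 and 31537955 mapped reads. GNA13 itself, the gene targeted by the sgRNA, was at 12.46 and 12.45 on the log2 scale in the libraries labelled control and at 13.10 and 13.11 in the libraries labelled GNA13-deficient, a difference of 0.65 ± 0.05 (SE; adjusted p = 0.00214, limma). GNA13 mRNA was thus higher, not lower, where the gene was labelled as targeted, so the mRNA did not check the labels and every direction below rests on them. B cell identity was present, with all 6 B cell markers tested and a summed level of 51598 to 60050 reads per library. Among 6 germinal center markers SERPINA9 was at 0 in every library, LMO2 and BCL6 were lower where GNA13 was labelled as targeted, and MME (15157 to 16961 reads per library, difference -0.02), MYBL1 (0.37) and S1PR2 (-0.25) were not called. Of 4 T cell markers, 3 were at 0 throughout and the summed level was at most 1 read. Myeloid markers summed to 224 and 246 reads in the control libraries and to 27 and 25 in those labelled GNA13-deficient, with CD14 at no more than 2 reads. The 4 non-hematopoietic markers summed to 157 and 165 against 115 and 121 reads, with PECAM1 called lower (-3.03) and EPCAM called higher (1.23), and the 4 plasma cell markers to 19309 and 19639 against 15434 and 14414. These levels moved with genotype, and their part in the results below was not tested.

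A gene is written below as called when its adjusted p was under 0.05 in limma's model of all tested genes. Of the 10 members 6 were called, of which 1 (MCL1) was higher and 5 were lower where GNA13 was labelled as targeted. Over all tested genes 29.7% were called, 13.1% higher and 16.6% lower. The genotypes did not overlap for any of the 10 members, against 65.3% of all tested genes without overlap. The median difference of the members was -0.40 on the log2 scale, beside -0.02 for all tested genes. Well-expressed genes were called more often: among the 8473 genes at or above the median level the share was 39.0%. Lack of overlap was also more frequent there, with 6273 of these 8473 genes.

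To set the sequences beside the values, the promoter windows of 4 members are shown, each running from 250 bases before to 50 bases after a transcription start (RefSeq, GRCh38.p14, printed 5′ to 3′ on the gene's strand). BCL2 (chr18:63319720-63320019, minus strand) had the largest difference of the members, BCL2L11 (chr2:111120664-111120963, plus strand) and BBC3 (chr19:47232618-47232917, minus strand) are BH3-only members that fell, and BAX (chr19:48954625-48954924, plus strand) is an effector that was not called. Capitals mark matches to the motifs described in the next paragraph.
BCL2: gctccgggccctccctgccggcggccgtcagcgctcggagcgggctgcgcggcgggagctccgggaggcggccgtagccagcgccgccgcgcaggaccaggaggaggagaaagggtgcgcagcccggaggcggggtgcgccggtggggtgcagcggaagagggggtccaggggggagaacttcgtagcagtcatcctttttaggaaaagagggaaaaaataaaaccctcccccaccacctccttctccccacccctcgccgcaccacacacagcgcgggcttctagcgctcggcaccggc
BCL2L11: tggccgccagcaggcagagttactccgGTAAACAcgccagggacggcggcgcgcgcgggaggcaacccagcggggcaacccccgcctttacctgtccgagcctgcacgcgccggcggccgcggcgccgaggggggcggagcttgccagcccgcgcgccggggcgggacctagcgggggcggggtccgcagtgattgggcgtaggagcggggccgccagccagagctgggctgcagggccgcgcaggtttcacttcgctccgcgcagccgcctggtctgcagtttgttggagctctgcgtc
BBC3: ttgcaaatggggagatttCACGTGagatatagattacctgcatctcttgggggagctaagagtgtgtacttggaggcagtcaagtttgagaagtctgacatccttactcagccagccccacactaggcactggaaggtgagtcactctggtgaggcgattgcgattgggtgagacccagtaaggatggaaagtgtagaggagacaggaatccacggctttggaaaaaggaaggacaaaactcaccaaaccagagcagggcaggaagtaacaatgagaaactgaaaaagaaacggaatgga
BAX: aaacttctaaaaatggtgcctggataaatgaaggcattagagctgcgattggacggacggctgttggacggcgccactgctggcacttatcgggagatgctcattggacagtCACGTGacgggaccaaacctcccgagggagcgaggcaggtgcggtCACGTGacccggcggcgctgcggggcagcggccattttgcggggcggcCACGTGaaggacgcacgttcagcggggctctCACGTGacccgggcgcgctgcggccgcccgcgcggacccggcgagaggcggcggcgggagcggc

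Letters bound by factor families with known targets among the members were searched on both strands. These were the E-box CACGTG, the E2F motif TTTCCCGC, the forkhead motif GTAAACA of FOXO factors, TTCNNNGAA of STAT factors and BCL6, and the CREB motif TGACGTCA. None of these motifs overlapped another in a printed window. Promoter windows were found for 8 of the 10 members, BCL2L1 with a pair of starts, and 4 members held a match. BCL2L11 held the forkhead letters at position 28, counted from 1 at the 5′ end of the window, and 3.42% of all 35116 RefSeq windows of this length held them. BBC3 held an E-box at position 19 and BAX held 4, at positions 113, 158, 206 and 237, where 7.26% of all windows held at least 1. BCL2A1 held the STAT and BCL6 letters at position 83, as did 7.66% of windows. No E2F or CREB letters, found in 1.63% and 1.85% of windows, were in the windows of the members, and BCL2, BCL2L1, PMAIP1 and BAK1 had no match. These matches describe letters only and were not measured as bound sites. BCL2, BCL2L11, BBC3 and BAX have 9, 14, 6 and 12 annotated transcripts. Which starts these cells use was not measured, so a match or its absence holds for the window searched only.

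Among the anti-apoptotic members BCL2 fell, MCL1 rose slightly, and BCL2L1 and BCL2A1 were not called. BCL2, the founding member and the target of venetoclax (chromosome 18, 60790579 to 60987361, minus strand, GRCh37), was at 12.00 and 12.02 on the log2 scale in the control libraries and at 9.54 and 9.42 in those labelled GNA13-deficient. In reads this was 4028 and 4215 against 723 and 637. Both control libraries lay far above both others, and the replicates of a genotype were close. The difference was -2.53 ± 0.06 (SE, n = 2 libraries per genotype; adjusted p = 0.000594 in limma's test across genes), a 5.78-fold lower level. Counted from the most negative difference, BCL2 stood at rank 626 of all 16945 tested genes (3.69% as low or lower) and at rank 33 of the 8473 well-expressed genes. In bulk RNA, fewer cells that express a gene and less RNA per cell cannot be told apart.

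MCL1, a short-lived survival protein that germinal center B cells need (chromosome 1, 150533371 to 150552214, minus strand), was at 13.23 and 13.24 in control libraries and at 13.53 and 13.46 in those labelled GNA13-deficient. It was higher in both of the latter, by 0.26 ± 0.06 (adjusted p = 0.0307, limma), or 1.2-fold. That call was lost in 4 of the 10 other settings that kept all libraries, and quantile normalization left a difference of 0.09. MCL1 lies over ADAMTSL4 on the opposite strand, which had at most 4 reads in any library against 9416 or more for MCL1.

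BCL2L1, which encodes BCL-XL (chromosome 20, 30252255 to 30311792, minus strand), was at 11.90 and 11.91 in control libraries and at 11.95 and 11.99 in the others. The genotypes did not overlap, but the gap between them was 0.04, and the difference of 0.06 had a 95% interval of -0.06 to 0.19 (adjusted p = 0.394, limma). BCL2A1, an NF-κB target in B cells (chromosome 15, 80253234 to 80263538, minus strand), had the lowest level per length in control libraries, with 13 and 21 reads in control libraries and 26 and 28 in the others. On the log2 scale these were 3.73 and 4.37 against 4.74 and 4.91. The interval of its difference of 0.78 ran from -0.18 to 1.73 (adjusted p = 0.184, limma), and it was not called.

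**Figure D1:**
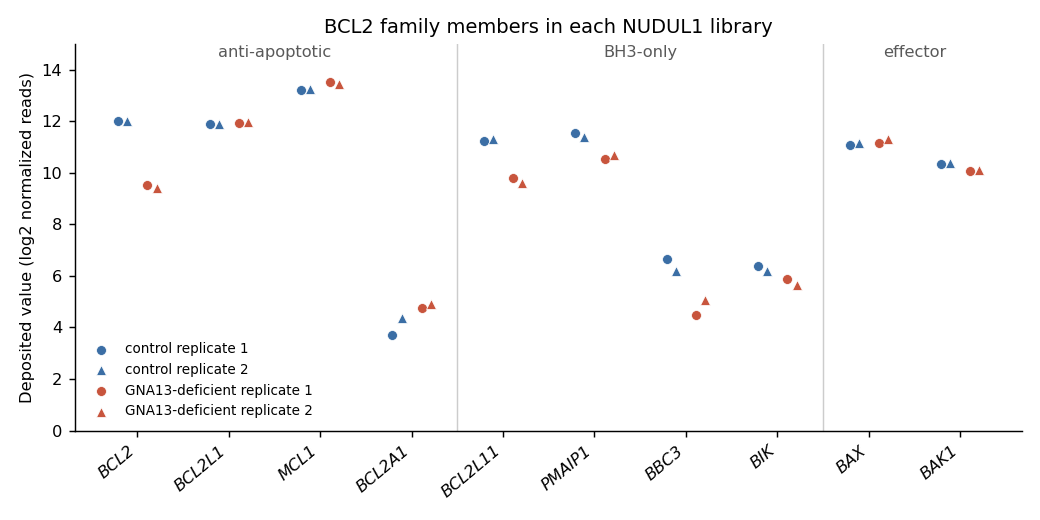
Deposited log2 values of the 10 members (y axis) in each of the 4 libraries, grouped by role, with circles for replicate 1 and triangles for replicate 2. BCL2 sits near 12.0 in both control libraries and near 9.5 in both libraries labelled GNA13-deficient, and the BH3-only members all sit lower in the latter.

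Of the 4 BH3-only members 3 fell and none rose, where 16.6% of all tested genes were called lower and 13.1% higher. BCL2L11, which encodes BIM, a BH3-only protein that binds all main anti-apoptotic members (chromosome 2, 111876955 to 111926021, plus strand), was at 11.24 and 11.32 in control libraries and at 9.81 and 9.61 in those labelled GNA13-deficient. In reads this was 2374 and 2602 against 873 and 724. The genotypes were far apart relative to the replicates, and the difference was -1.57 ± 0.09 (adjusted p = 0.00125, limma), a 2.98-fold lower level. In the same order BCL2L11 stood at rank 1195 of all tested genes (7.05% as low or lower) and at rank 73 of the well-expressed genes. An antisense transcript, MIR4435-2HG (LOC541471 in the table), overlaps BCL2L11 and had 9 and 14 reads in control libraries and 0 and 5 in the others, far below those of BCL2L11.

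PMAIP1, which encodes NOXA, a partner chiefly of MCL1 and A1 (chromosome 18, 57567228 to 57571537, plus strand), was at 11.56 and 11.40 in control libraries and at 10.55 and 10.68 in those labelled GNA13-deficient. Both of the latter were lower, with a difference of -0.86 ± 0.08 (adjusted p = 0.0031, limma), or 1.82-fold. BBC3, which encodes PUMA, a p53 target (chromosome 19, 47724079 to 47736023, minus strand), had 99 and 74 reads in control libraries and 22 and 31 in the others. Its log2 values of 6.65 and 6.19 against 4.50 and 5.06 did not overlap, although replicates differed by 0.47 and 0.56. The difference was -1.64 ± 0.33 (adjusted p = 0.022, limma), a 3.12-fold lower level with a 95% interval from -2.49 to -0.79. BBC3 lost its call without the filter on low values (adjusted p = 0.131) and without a variance trend (0.0549), and PMAIP1 without the filter (0.0509).

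BIK, a BH3-only protein of the endoplasmic reticulum (chromosome 22, 43506756 to 43525718, plus strand), was at 6.40 and 6.19 in control libraries and at 5.90 and 5.66 in those labelled GNA13-deficient. Both of the latter lay lower, but the difference of -0.52 had an interval of -1.10 to 0.07 and was not called (adjusted p = 0.158, limma). Quantile normalization brought it to -0.11.

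Of the effectors BAK1 was slightly lower and BAX was not called. BAX, which moves from cytosol to mitochondria on activation (chromosome 19, 49458072 to 49465055, plus strand), was at 11.07 and 11.17 in control libraries and at 11.17 and 11.30 in the others. The gap between genotypes was 0.001, and the difference of 0.11 had an interval of -0.07 to 0.29 (adjusted p = 0.307, limma). BAK1, which encodes BAK, the effector resident at mitochondria (chromosome 6, 33540324 to 33548070, minus strand), was at 10.35 and 10.38 in control libraries and at 10.05 and 10.11 in those labelled GNA13-deficient. It was lower in both of the latter, with a difference of -0.28 ± 0.06 (adjusted p = 0.0253, limma), or 1.21-fold. Centring of each library on its median moved the median difference of all genes from -0.02 to 0.18, brought BAK1 to -0.07 with its call lost, and made BCL2L1 (0.27, adjusted p = 0.0253) and BAX (0.32, adjusted p = 0.044) higher calls.

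**Figure D2:**
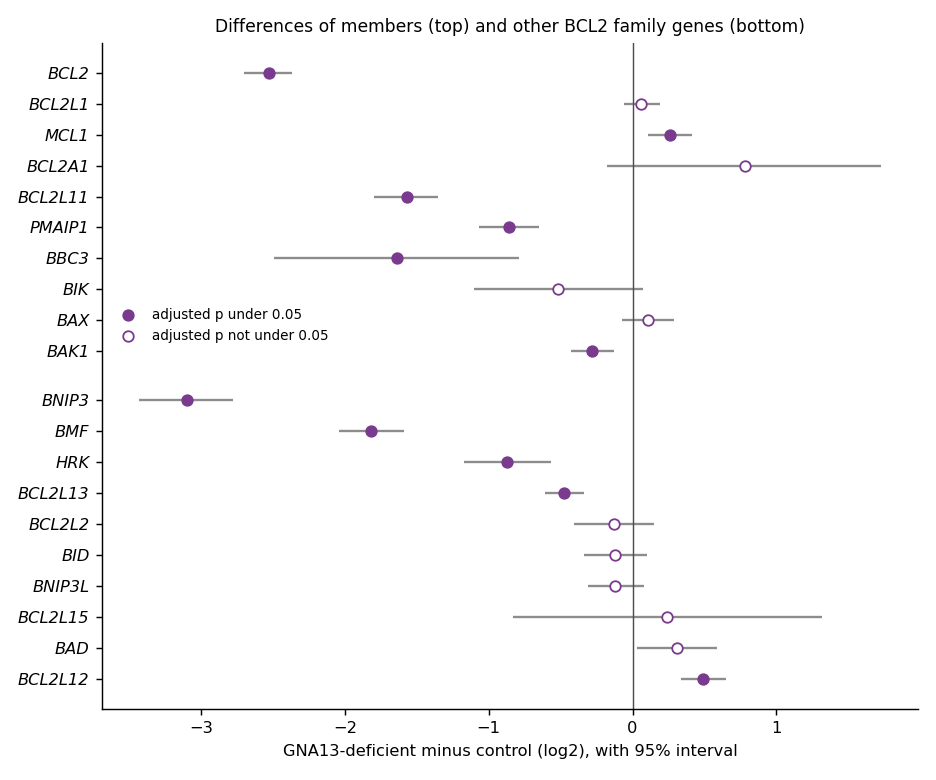
Log2 difference between genotypes (x axis) with its 95% interval from limma, for the 10 members above and 10 further BCL2 family genes below. Filled points are called. BNIP3, BCL2, BMF, BBC3 and BCL2L11 lie farthest to the left, and BCL2L1 and BAX have intervals that include 0.

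Levels were compared between members only per length, as RPKM, the reads per kilobase of annotated exon scaled to the depth of the library. In control libraries the order of mean levels was MCL1 (51.0), PMAIP1 (43.1), BCL2L1 (30.1), BAX (28.3), BAK1 (19.6), BCL2L11 (12.1), BCL2 (10.8), BIK (2.73), BBC3 (0.9) and BCL2A1 (0.558). No neighbours in that order overlapped between their 2 libraries. In the libraries labelled GNA13-deficient MCL1 stayed first at 59.1 and PMAIP1 moved from rank 2 to rank 4 at 22.8. BCL2L11 was at 3.96 and kept rank 6, and BCL2 was at 1.8. There the libraries of BCL2 (1.9 and 1.7) and BIK (2.02 and 1.66) overlapped, and those of BCL2L1 and BAX met at 30.4. With the longest transcript as the length BAX rose to rank 2 in both genotypes (54.0 and 56.3), so ranks between members with different transcript models depend on that choice.

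**Figure D3:**
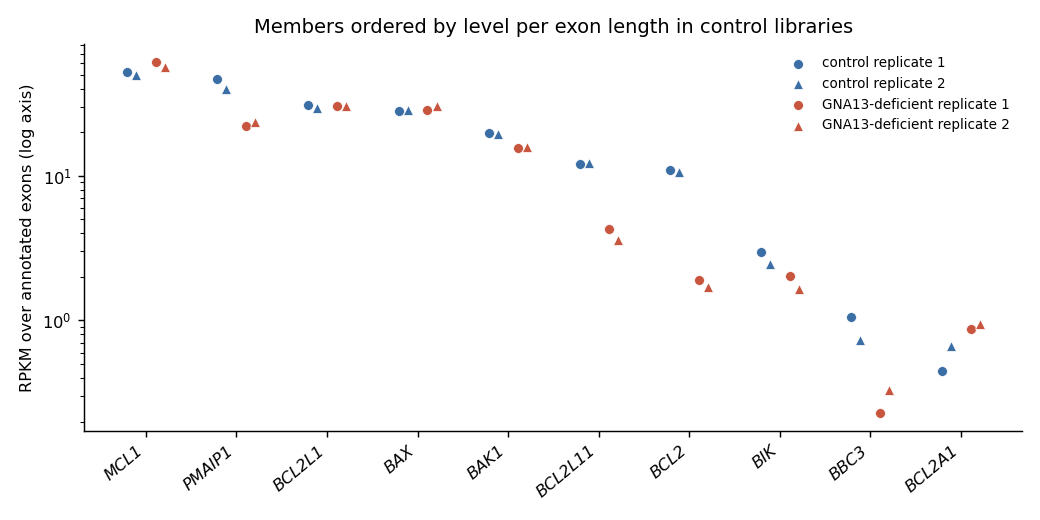
Level of each member in RPKM over its annotated exons (y axis, log scale) in each of the 4 libraries, ordered by the control mean. MCL1 is highest in every library, and BCL2 falls from a mean of 10.8 to 1.8.

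Pairs of members whose proteins bind or oppose each other were compared within each library, where any single scaling factor of a library cancels. These log2 ratios are of reads and not per length, so only their change between genotypes can be read. BAX over BCL2 was -0.93 and -0.85 in control libraries and 1.63 and 1.88 in the others, a rise of 2.64, or 6.25-fold. BCL2L11 over BCL2 went from -0.76 and -0.70 to 0.27 and 0.19, a rise of 0.96. Relative to BCL2, then, both the effector and the BH3-only gene stood higher.

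For BCL2L11 and PMAIP1 over the other anti-apoptotic members that were paired with them, the ratios were lower in the libraries labelled GNA13-deficient. BCL2L11 over MCL1 was -1.99 and -1.92 in control libraries and -3.73 and -3.85 in the others, a change of -1.83. BCL2L11 over BCL2L1 was -0.67 and -0.59 against -2.14 and -2.39, and PMAIP1 over MCL1 was -1.67 and -1.84 against -2.98 and -2.78. For BCL2L11 the direction thus depended on which of BCL2, MCL1 and BCL2L1 stood below the line. The genotypes did not overlap in any of the 11 pairs, and the change smallest in size was -0.34, for BAK1 over BCL2L1. None of the 10 members overlapped singly either, where 65.3% of all tested genes and 6273 of the 8473 well-expressed genes had no overlap. The pair changes restate the differences of single genes and add no separate result. No share was computed over all pairs of genes. Quantile normalization, which is not a single factor, brought BIK over BCL2L1 from -0.58 to -0.11. With 2 libraries against 2 an exact permutation test cannot reach a p below 0.333, so no pair was tested.

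**Figure D4:**
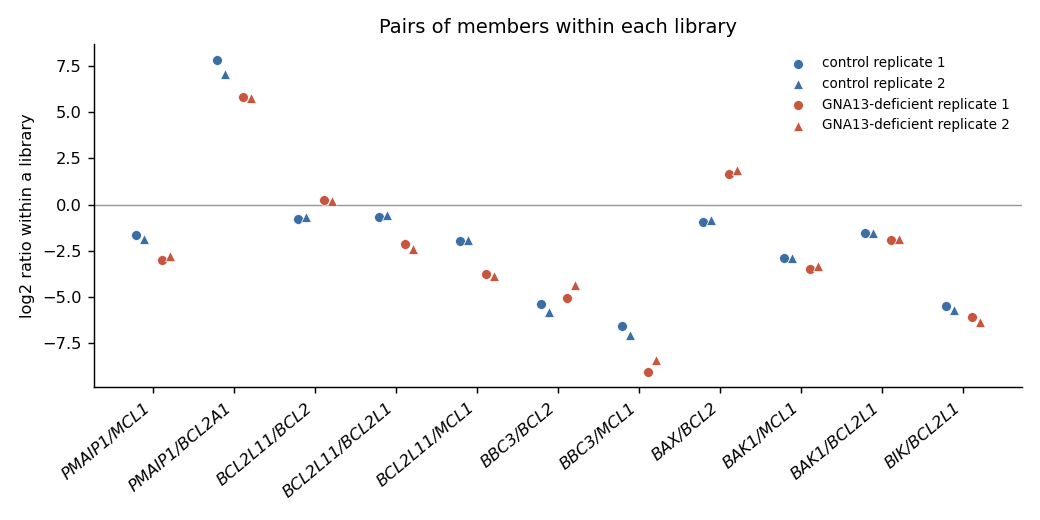
Log2 ratio of reads between the members of each of 11 pairs (y axis) in each library, with circles for replicate 1 and triangles for replicate 2. Pairs with BCL2 as denominator are higher in both libraries labelled GNA13-deficient, and pairs with MCL1, BCL2L1 or BCL2A1 as denominator are lower.

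Of 13 further genes of the family 11 were tested, 1 was called higher and 4 lower, with a median difference of -0.13. The share was 45.5%, beside 29.7% of all tested genes and 39.0% of well-expressed genes. BNIP3, a mitochondrial protein of hypoxia and mitophagy, was at 9.19 and 9.19 in control libraries and at 6.17 and 6.01 in the others, a difference of -3.10 ± 0.13 (adjusted p = 0.00085, limma). This was larger in size than that of any of the 10 members. BMF, a BH3-only protein tied to the cytoskeleton, was at 9.53 and 9.61 against 7.72 and 7.77 (difference -1.82 ± 0.09, adjusted p = 0.00102, limma).

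HRK, a BH3-only protein studied mainly in neurons, had 333 and 391 reads in control libraries and 193 and 182 in the others, a difference of -0.87 (adjusted p = 0.00722, limma). BCL2L13, a mitochondrial member with a role in mitophagy, differed by -0.48 ± 0.05 (adjusted p = 0.00425), and BCL2L12 was higher by 0.49 ± 0.06 (adjusted p = 0.00547, limma). The replicates of each called gene lay apart from the other genotype. With BMF, HRK, BAD and BID added to the members, 5 of 8 BH3-only genes were called lower and none higher, with a median of -0.87, where 16.6% of all tested genes were called lower.

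The remaining family genes were not called. BAD, a BH3-only protein regulated by survival kinases, differed by 0.31 (95% interval 0.03 to 0.59, adjusted p = 0.0901, limma), and was called in 4 of 10 other settings. BID, the link from death receptors to mitochondria, differed by -0.12 (-0.34 to 0.10). BCL2L2, which encodes BCL-W, differed by -0.13 (-0.41 to 0.15) and BNIP3L by -0.12 (-0.31 to 0.08), and the differences of BID, BCL2L2 and BNIP3L turned positive under median centring. BCL2L15 had 9 to 14 reads per library and BOK 1 or 2, and BCL2L10 and BCL2L14 had too few libraries above 0 to be tested.

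Downstream of the mitochondrial pores, caspases are switched on by cytochrome c and held back by inhibitors of apoptosis. Of 18 such genes 2 were called higher and 3 lower, with a median of 0.03. The share called was 27.8%, beside 29.7% of all tested genes and 39.0% of well-expressed genes. Of the 18 genes, 17 were at or above the median level. BIRC5, which encodes survivin and is also a mitotic gene, was higher by 0.75 ± 0.12 (adjusted p = 0.011, limma), and AIFM1, a mitochondrial flavoprotein, by 0.46 ± 0.05. DFFB, the nuclease that cuts DNA in dying cells, had 260 and 258 reads in control libraries and 88 and 90 in the others, a difference of -1.47 ± 0.14 (adjusted p = 0.003, limma). CYCS, which encodes cytochrome c, differed by -0.55 ± 0.09 and BIRC2, an inhibitor of apoptosis, by -0.84 ± 0.10.

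In the death receptor pathway, which begins at the cell surface, 11 of 12 genes were tested, 2 were called higher and 1 lower. The share was 27.3%, beside 29.7% of all tested genes and 39.0% of well-expressed genes. FAS, the receptor that culls germinal center B cells, had 79 and 60 reads in control libraries and 122 and 133 in the others, a difference of 0.96 ± 0.23 (adjusted p = 0.0353, limma). CASP10, an initiator caspase, was higher by 0.37 ± 0.09 (adjusted p = 0.0368, limma). TNFRSF1A, a receptor for tumor necrosis factor, had 97 and 116 reads against 9 and 10, a difference of -3.41 ± 0.29 (adjusted p = 0.00239, limma). The FAS ligand gene was at 0 or 1 read and was not tested.

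Of 9 genes for proteins that bind the members or mark them for degradation 1 was called, FBXO10, part of a ubiquitin ligase for BCL2. The share was 11.1%, beside 29.7% of all tested genes and 39.0% of well-expressed genes. FBXO10 was at 9.04 and 9.04 in control libraries and at 7.72 and 7.81 in the others, a difference of -1.28 ± 0.09 (adjusted p = 0.00193, limma).

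Of 15 genes for transcription factors with known targets among the members, 1 was called higher and 6 lower (46.7%, beside 29.7% of all tested genes and 39.0% of well-expressed genes), with a median of -0.21. BCL6, the germinal center repressor for which BCL2 is a known target, had 1692 and 1935 reads in control libraries and 293 and 323 in the others, a difference of -2.49 ± 0.10 (adjusted p = 0.00085, limma). BCL6 and BCL2 both fell, and a link between the 2 changes was not tested. FOXO3, an activator of BCL2L11 and BBC3, differed by -0.57 ± 0.12 (adjusted p = 0.0235, limma), and REL, an NF-κB subunit, by -0.61 ± 0.11 (adjusted p = 0.0185, limma). E2F1, a cell cycle factor, was at 11.21 and 11.23 against 11.87 and 11.86, a difference of 0.64 ± 0.05 (adjusted p = 0.0021, limma). TP73, a p53 relative, had 11 and 6 reads in control libraries and 0 in both others, which is at least 2.71-fold lower against a floor of 3 reads per library.

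**Figure D5:**
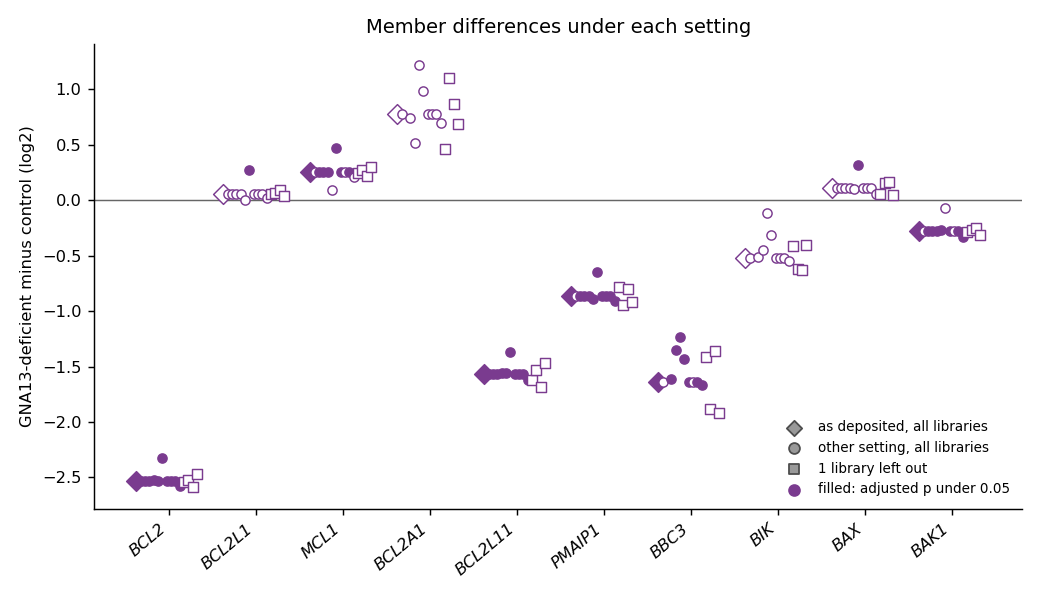
Log2 difference of each member (y axis) under every setting, with a diamond for the deposited values, circles for other settings on all libraries and squares with 1 library left out. Filled symbols are called. BCL2 and BCL2L11 stay called in all 11 settings on 4 libraries, and no member changes sign.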

How the data were processed

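RNA sequencing of NUDUL1 cells was analysed in 2 libraries labelled control and 2 labelled GNA13-deficient. The authors aligned reads with STAR to hg19 (the submitters' processing notes also name HTSeq) and deposited normalized values per gene on the log2 scale. These were used unchanged, and the mapped read totals deposited with them gave the depth. Low values stepped in whole reads, so reads were recovered. This held for 100.0% of values of at most 400 reads. The tolerance was 0.02 reads, or the rounding error of the deposited log2 values where that was larger. The library kit marks strand, and the strand setting of the counting is not given in the sources used here. Genes above 0 in at least 2 libraries were fitted with limma 3.58.1 in R 4.3.3, with genotype as the only term, a variance trend and 2 residual degrees of freedom. Adjusted p values are Benjamini-Hochberg values over all 16945 genes tested, with a threshold of 0.05. The code of the fit was checked on simulated data with a fixed spread, where only genes with many reads were changed. That check does not bear on the calls in these data. Tables and figures were made with Python 3.11.

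Members and lists were chosen with earlier results of these data known. Named genes were GNA13, the 10 members, tested further family genes, and from each other list up to 4 higher and 4 lower genes with the largest called differences without overlap. Markers were named after their values were seen. Positions are from GENCODE on GRCh37, promoters from RefSeq. Alternatives were other filters, pseudocounts of 1 and 10, quantile normalization, median centring, variance priors, voom weights on the recovered reads, a replicate block and leaving out each library. Some genes of the lists are not reported here by name.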

Additional observations from a re-analysis of the deposited data

How the results depend on the processing

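With all 4 libraries kept, the 10 members gave 97 values under other settings, of which 85 kept direction and call, 10 lost the call, 2 gained it and none reversed. The difference of BCL2 ran from -2.58 to -2.32 and that of BCL2L11 from -1.62 to -1.37, called in all 11 settings. Of 5037 genes called over all genes, no filter gave 1999 (1885 shared) and no variance trend 2718 (2520 shared). The members went from 6 called to 2 without a filter and 3 without a trend, the transcription factors from 7 to 4 and 4, the downstream genes from 5 to 2 and 3, and the death receptor genes from 3 to 1 and 1. Median centring gave 9 downstream genes and 3 binders and ubiquitin enzymes (1 as reported), and a filter at the median level gave 3 binders and ubiquitin enzymes and 1 death receptor gene. That filter left 7 death receptor genes to test, and FAS and TNFRSF1A were not among them. Median centring subtracted a constant from each library, so the difference of every gene moved up by the same amount. It moved the median difference of all genes from -0.02 to 0.18. Apart from genes that a filter removed, the cause of the changes under the other settings was not tested. The share of higher calls was 69.1% with centring and 54.6% with the filter at the median level, beside 44.0% as reported. Centring turned BCL2L2 to 0.08, BID to 0.09 and BNIP3L to 0.09, and quantile normalization turned BCL2L2 to 0.05.

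MCL1 lost its call without a filter (adjusted p = 0.0849, limma), under quantile normalization (0.278), without a trend (0.123) and with voom weights (0.0508), and BAK1 without a filter (0.0536), under centring (0.481) and without a trend (0.106). Among the other named genes, CYCS and FOXO3 lost their calls in 3 settings, without a filter, under centring and without a trend. BIRC5, FAS and REL lost theirs without a filter and without a trend, CASP10 in those and with voom weights, and BIRC2 and TP73 without a filter. With 1 library left out, limma on 3 libraries had 1 residual degree of freedom, the lone library being assumed to vary like the other genotype, and called 0 genes in all (5257 to 5600 at an unadjusted p under 0.05), and 0 in each list, so calls in these fits say nothing on stability. Member differences stayed on their side of 0, with BCL2 between -2.59 and -2.47, BCL2L11 between -1.68 and -1.47, BBC3 between -1.92 and -1.36, MCL1 between 0.22 and 0.30 and BCL2A1 between 0.46 and 1.10. BOK ran from -0.91 to 0.05 (positive without control replicate 2) and BCL2L15 from -0.11 to 0.60 (negative without GNA13-deficient replicate 2).

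Replicate numbers are shared between genotypes, but no source pairs the libraries. Deviations of same-numbered libraries correlated at 0.453 over 8473 genes. With the replicate block, 6616 genes were called, 9 of the downstream genes, 5 death receptor genes and 2 binders and ubiquitin enzymes, and 6 members as before. Few reads stand behind BCL2A1, BBC3, BIK, TNFRSF1A, TP73, BOK and BCL2L15, among others, and 2 libraries per genotype limit every interval, which cover the spread between these libraries only.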
